A study of Mus musculus with 6 samples.

Results

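The interferon-stimulated genes described here are 36 genes of the antiviral response, chosen by name with earlier results of these data known. All 36 were found among the 24077 genes of the single-cell table and the 30828 genes of the spatial tables. They comprise 4 genes of interferon signalling and transcription (Irf7, Irf9, Stat2 and Usp18), 5 nucleic acid sensors (Ddx58, Ifih1, Dhx58, Eif2ak2 and Zbp1), Isg15 and its ligase Herc6, the 4 tetratricopeptide genes Ifit1, Ifit2, Ifit3 and Ifit3b, 5 oligoadenylate synthetase genes (Oas1a, Oas2, Oas3, Oasl1 and Oasl2), 12 other effectors (Rsad2, Cmpk2, Mx1, Bst2, Isg20, Ifi44, Ifi27, Ifi27l2a, Ifi35, Xaf1, Rtp4 and Trim30a), and Parp9, Parp14, Gbp2 and Gbp3.

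Interferons are secreted proteins that bind receptors on the cell surface and activate Janus kinases. For the type I interferons this leads to a transcription factor complex with STAT2 and IRF9 that binds the interferon-stimulated response element in the promoters of target genes. IRF7 raises the production of interferon alpha and beta, and USP18 dampens the receptor. Interferon epsilon is a type I interferon made by the epithelium of the female reproductive tract without infection and is known to vary with the estrous cycle.

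Uteri were taken at 12 months of age from CD-1 mice that received corn oil (CO) or diethylstilbestrol (DES), a synthetic estrogen, at 1 mg per kg per day by subcutaneous injection on neonatal days 1 to 5. Per the study's methods, the DES mice were in persistent estrus and CO mice in estrus were selected. For single cells, the uteri of 2 CO and of 4 DES mice were pooled into 1 library per condition, so no difference between those libraries has a replicate check. For spatial RNA, 2 sections per condition from separate mice (CO A, CO B, DES A and DES B) were placed on a capture slide, the DES sections being chosen for the presence of adenocarcinoma, and CO B had a tissue fold. Per the study, clusters could be told apart in DES B only to a limited extent, and most of its spatial analyses used 1 section per condition. DES given at this age leads to uterine adenocarcinoma in the adult mouse.

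The sections held 1433, 1834, 1575 and 1357 spots (CO A, CO B, DES A and DES B) with 12506177, 11032957, 9117099 and 9880021 unique molecular identifiers (UMIs, 1 per captured RNA molecule). Levels are given as CPM, UMIs of a gene scaled to a total of 1000000 UMIs. A spot covers several cells, so a lower spot level can come from fewer cells of a type or from less RNA per cell, and these cannot be told apart. Spots of the cluster that the study named stroma in each section numbered 101, 188, 211 and 132, with 558480, 922552, 1015381 and 346412 UMIs. The summed level of 6 stromal markers, such as Dpt and Col1a1, was 7322, 5886, 6204 and 4310 CPM in those spots against 3671, 4005, 2276 and 1487 CPM in the whole sections. The stromal spots of DES B also held muscle markers at 8369 CPM and plasma cell markers at 35686 CPM, against 888 and 34.0 CPM in CO A. The single-cell libraries held 32387 CO and 16312 DES cells, of which 12253 and 9701 had a cell type in the authors' annotation. They shared 180 cell barcodes, 50 of them on annotated CO cells and 96 on annotated DES cells. DES stromal and endothelial cells were too few to use, with 1 and 5 cells.

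RefSeq promoter windows (GRCm38.p6, 250 bases before to 50 after the start site) matched 26 of the 36 genes. The core of the interferon-stimulated response element, GAAA followed by any 2 bases and GAAA again, on either strand with overlapping matches counted, was in 15 of the 26 promoters (57.7%) and in 3.99% of the 27025 genes with such windows. The gamma-activated sequence TTCNNNGAA, an element of the response to interferon gamma, was in 6 of 26 (23.1%), against 9.55% of all genes. A match of letters is a description and not a measured binding site. The 200 bases before the start site are given for 5 members that hold a core match, Isg15, Rsad2, Ifit1, Ifit3 and Oas3. They are written 5′ to 3′ on the gene's strand, with the core matches in capitals.
Isg15, chr4:156200819-156201018, minus strand: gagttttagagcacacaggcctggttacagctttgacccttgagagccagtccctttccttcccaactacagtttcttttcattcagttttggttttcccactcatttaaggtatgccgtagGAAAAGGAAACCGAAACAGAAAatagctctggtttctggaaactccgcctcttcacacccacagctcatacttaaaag
Rsad2, chr12:26456453-26456652, minus strand: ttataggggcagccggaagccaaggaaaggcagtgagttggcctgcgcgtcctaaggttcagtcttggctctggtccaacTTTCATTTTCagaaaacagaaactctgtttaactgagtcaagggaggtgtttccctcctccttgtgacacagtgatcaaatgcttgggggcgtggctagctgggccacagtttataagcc
Ifit1, chr19:34640689-34640888, plus strand: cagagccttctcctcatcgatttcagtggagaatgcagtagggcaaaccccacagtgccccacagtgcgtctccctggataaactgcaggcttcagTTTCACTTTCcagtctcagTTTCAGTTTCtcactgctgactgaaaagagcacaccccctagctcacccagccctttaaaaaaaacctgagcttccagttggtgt
Ifit3, chr19:34583329-34583528, plus strand: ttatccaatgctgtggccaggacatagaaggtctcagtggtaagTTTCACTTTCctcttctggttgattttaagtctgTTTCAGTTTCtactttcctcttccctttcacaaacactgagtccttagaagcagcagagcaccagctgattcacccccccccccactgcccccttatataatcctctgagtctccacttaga
Oas3, chr5:120777660-120777859, minus strand: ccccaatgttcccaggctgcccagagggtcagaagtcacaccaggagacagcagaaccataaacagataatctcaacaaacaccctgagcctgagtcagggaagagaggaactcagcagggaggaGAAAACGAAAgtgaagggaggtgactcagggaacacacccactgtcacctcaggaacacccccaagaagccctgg
Isg15 holds 3 overlapping matches in a single run and Oas3 holds 1, while Ifit1 and Ifit3 hold 2 each and Rsad2 holds 1 in the reverse orientation. Irf7, Irf9, Ifit2, Oasl1, Oasl2, Ifi44, Xaf1, Cmpk2, Herc6, Ifi35 and Isg20 had a window without these letters.

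In whole sections, most of the 36 genes had lower levels in DES than in CO. Their summed level was 2893 and 3200 CPM in the 2 CO sections against 1499 and 1954 CPM in the DES sections. The median log2 fold change of the members, DES over CO, was -1.24, against -0.01 over the 14098 genes tested, and 34 of the 36 lay below 0. Both DES sections lay below both CO sections for 28 members (17.9% of all genes tested did so) and above them for 3 (43.8%). With 2 sections against 2 an exact permutation test has 6 arrangements only, so the sums are given without a test. By edgeR (quasi-likelihood test, Benjamini-Hochberg adjustment over all genes), 12 members fell and 0 rose, where 2.63% of all genes tested were called lower and 2.67% higher. At an unadjusted p under 0.05, 25 members were lower (12.8% of genes) and 0 higher in the same test. By DESeq2, 19 were called lower, with 6.87% of all genes. The calls needed both DES sections and were lost in edgeR when either was left out. Nearly all calls over all genes were lost as well, so this loss is not particular to the members. The median over members ran from -1.68 to -0.96 over the main fit and the alternatives.

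**Figure D1:**
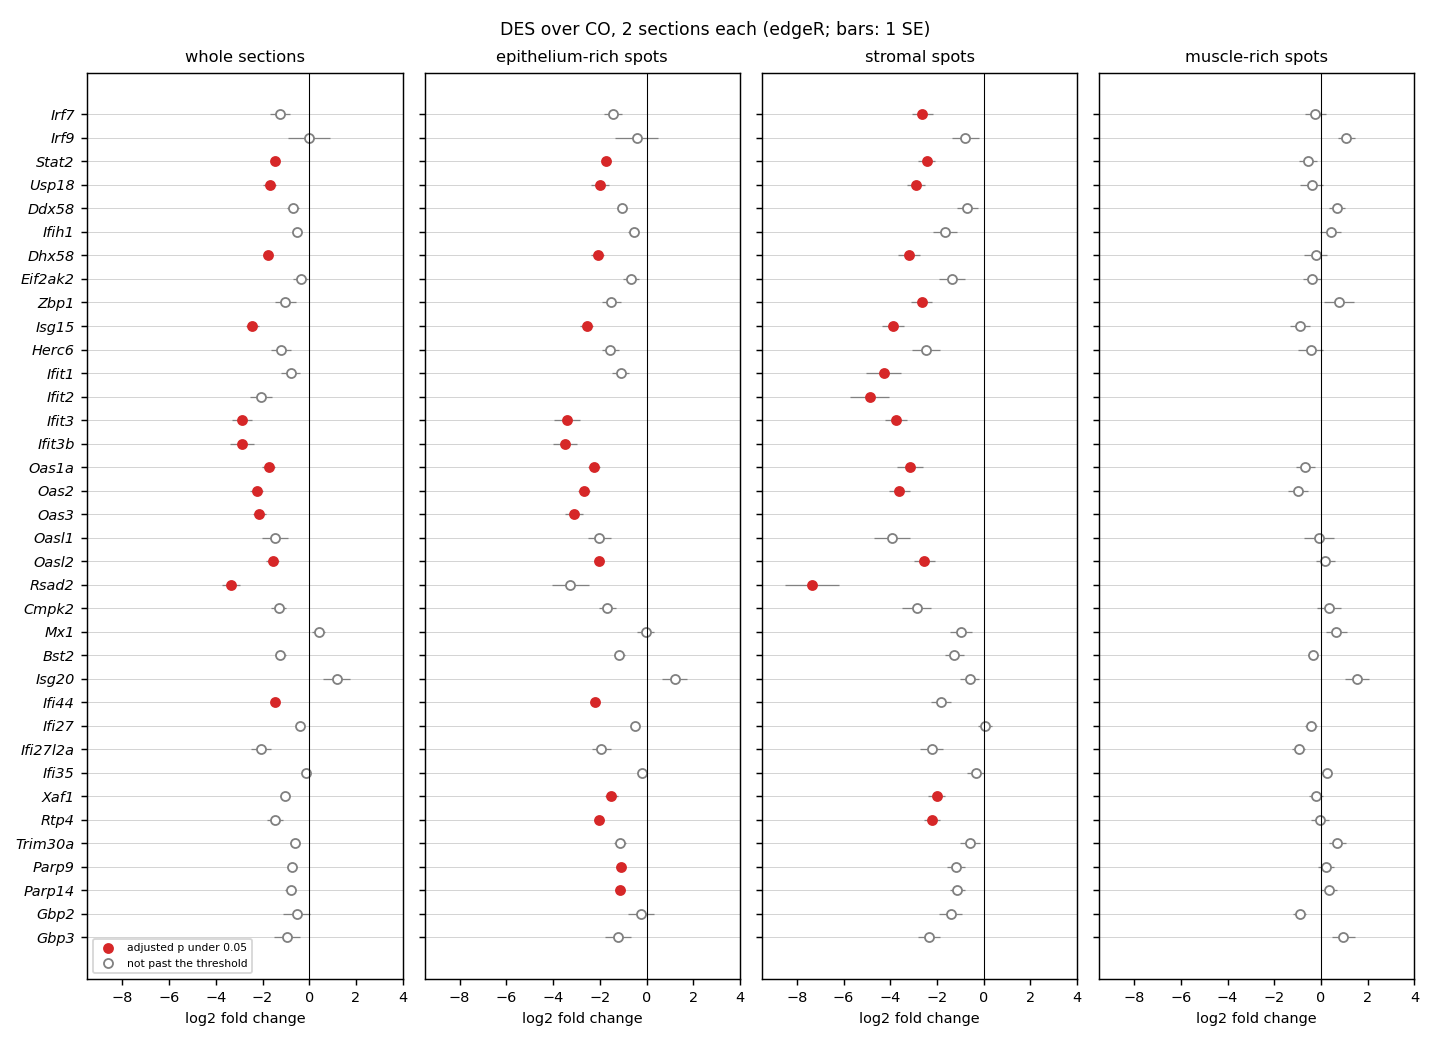
Log2 fold change of each member, DES over CO (x axis), in whole sections and in 3 kinds of spots, from edgeR on 2 sections per condition. Bars are 1 standard error, derived from the test's F statistic, and filled points passed an adjusted p of 0.05. A gene without a point had too few counts to be tested, and the fitted value of Rsad2 in stromal spots rests on 0 UMIs in DES. Filled points are found in every panel but that of the muscle-rich spots.

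Isg15, a ubiquitin-like protein that is conjugated to other proteins during the antiviral response, was at 143 and 121 CPM in the CO sections and at 23.1 and 33.2 CPM in the DES sections. It fell by 2.43 ± 0.27 on the log2 scale (adjusted p = 0.0219 in edgeR's quasi-likelihood test). Here and below, the value after ± is a standard error derived from that test. It is the absolute log2 change divided by the square root of the F statistic. Herc6, its mouse ligase, was at 9.36 and 13.6 CPM in CO and 3.73 and 7.49 CPM in DES, with an adjusted p of 0.177. The groups did not overlap for either gene, but the difference in Herc6 did not pass.

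Of the oligoadenylate synthetase family, whose members make the second messenger that activates RNase L or share its fold, 4 of 5 fell in whole sections. Oas2 was at 73.0 and 98.3 CPM in CO and 16.8 and 24.3 CPM in DES, a log2 change of -2.26 ± 0.28. Oas3 was at 15 and 12.2 CPM in CO and 3.40 and 3.75 CPM in DES. Oas1a was at 40.9 and 47.6 CPM in CO against 12.1 and 18.5 CPM in DES, and Oasl2 at 88.8 and 98.3 CPM against 28.5 and 43.6 CPM. The lowest CO value of each of these genes was more than the highest DES value. Oasl1, a synthetase-like gene without the enzyme activity that restrains Irf7 translation, was at 52.9, 21.0, 10.9 and 19.8 CPM (CO A, CO B, DES A, DES B) and did not pass (adjusted p = 0.198 in edgeR), with CO B near DES B.

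Among the tetratricopeptide genes, whose proteins bind viral RNA, 2 of 4 fell in whole sections. Ifit3 was at 24.9 and 29.5 CPM in CO and 2.63 and 5.77 CPM in DES, a log2 change of -2.88 ± 0.42. Ifit3b was at 4.16 and 8.25 CPM against 1.10 and 0.810 CPM. Ifit3 and Ifit3b are near-identical copies between which reads may have been split, so their separate values are uncertain. Ifit1 overlapped between the groups, at 19.1 and 27.6 CPM in CO and 10.3 and 20.5 CPM in DES. Ifit2 was at 4.16 and 7.43 CPM in CO and 1.21 and 1.92 CPM in DES (adjusted p = 0.0839 in edgeR).

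Rsad2, which encodes the antiviral enzyme viperin, had the most negative fold change in whole sections, at 8.0 and 11 CPM in CO and 0.877 and 1.2 CPM in DES (log2 -3.36 ± 0.38, adjusted p = 0.0231 in edgeR). Its chromosomal neighbour Cmpk2, a mitochondrial nucleotide kinase, was at 14.2 and 11.8 CPM against 4.94 and 7.09 CPM and did not pass. Of the signalling genes, Stat2 fell from 54.1 and 61.2 CPM to 22.6 and 25.4 CPM and Usp18 from 31.9 and 29.1 CPM to 8.88 and 12.7 CPM. The single sensor that fell was Dhx58, which encodes the RIG-I-like helicase LGP2, at 27.0 and 28.6 CPM in CO and 8.77 and 9.92 CPM in DES. Ifi44, an interferon-induced protein of the cytoplasm, was at 44.5 and 39.9 CPM in CO and 17.0 and 18.0 CPM in DES, and fell. These are the remaining members that passed in whole sections.

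The stromal spots held the highest summed level of the members in the CO sections, though not the highest level of every member, and showed the same direction of change. In those spots the summed level of the members was 4797 and 6744 CPM in CO against 1766 and 1816 CPM in DES. Of the 34 members with enough counts to be tested, 15 fell and 0 rose by edgeR, where 0.673% of the 8914 genes tested were called lower and 0.796% higher. At an unadjusted p under 0.05, 27 were lower (6.35% of genes) and 0 higher, and DESeq2 called 18 lower (0.998% of genes). In this fit 33 of the 34 lay below 0, with a median of -2.28, and both DES sections lay below both CO sections for 29 (18.1% of all genes tested) and above them for 0 (24.7%). Ifit3b and Oas3 were not tested there. The filter on counts could be met by the CO sections alone, as for Ifit1 and Ifit2, with 2 and 1 UMIs in DES. Such a gene could be seen to fall but not to rise. The calls changed when a section was left out and were lost in edgeR without DES A, where nearly all lower calls over all genes were lost too. The median over members ran from -2.56 to -1.94 over the main fit and the alternatives. Stroma was also taken as the 15% of spots with the highest stromal against muscle and epithelial markers. In that setting 2 members passed, Isg15 and Ifit3 (0.0502% of genes were called lower), and 27 were lower at an unadjusted p under 0.05 (6.12% of genes).

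**Figure D2:**
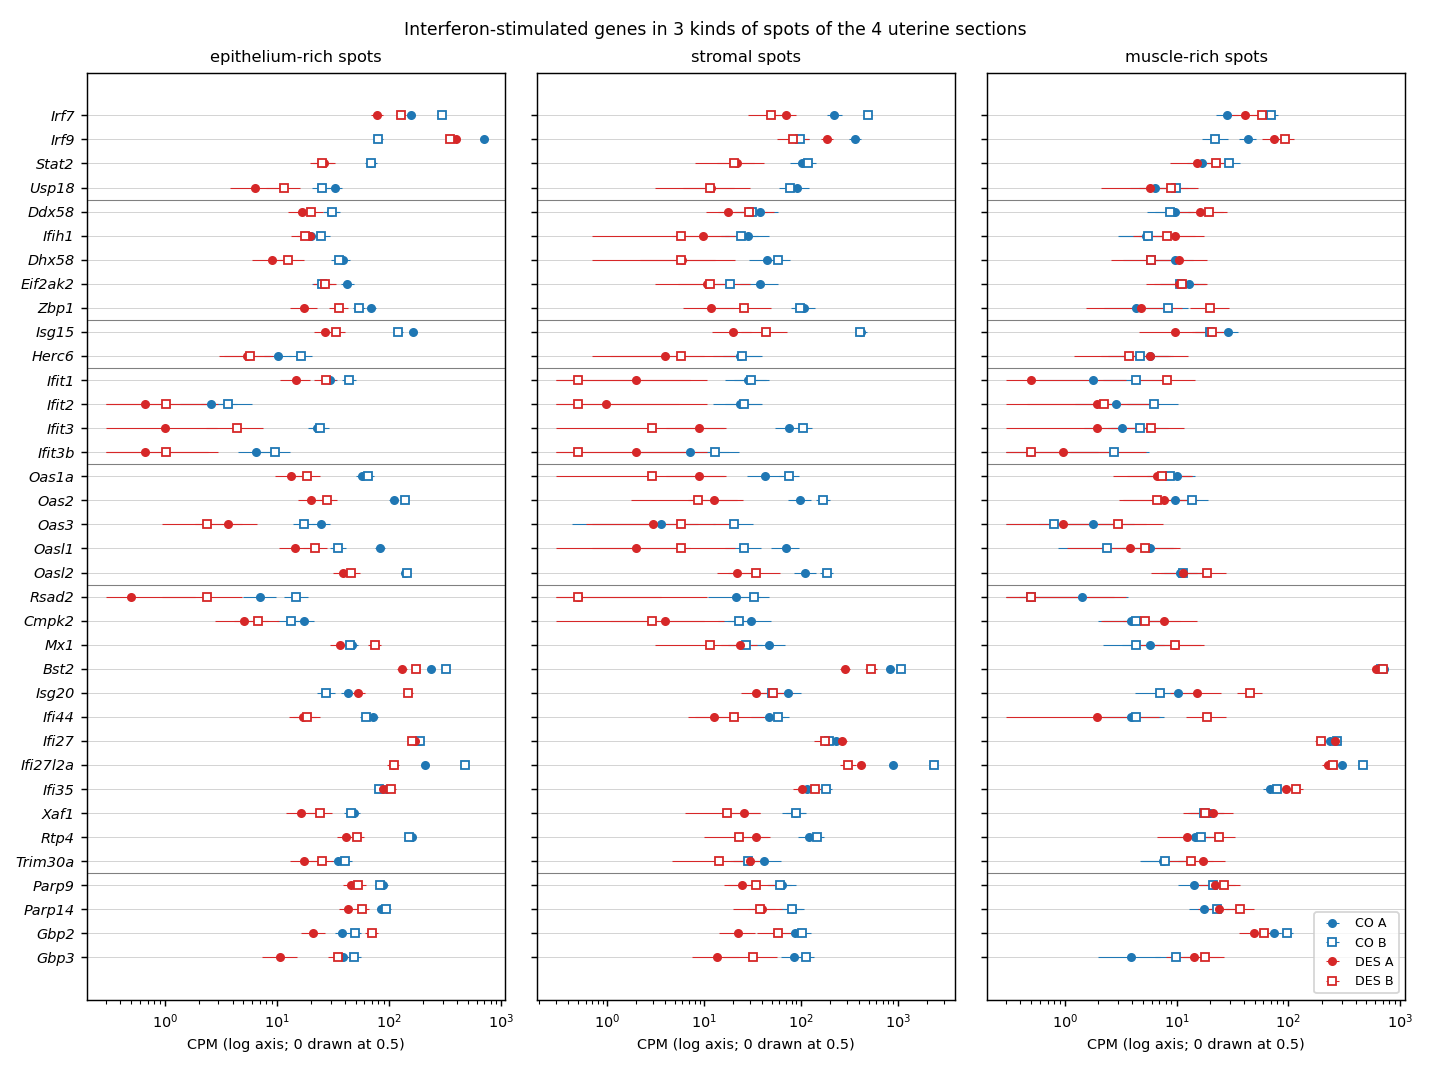
Level of each member in CPM (log x axis, 0 drawn at 0.5) in epithelium-rich, stromal and muscle-rich spots, with 1 point per section and 95% Poisson intervals for counting error. The CO points lie right of the DES points for most genes in the first and second panels, and mix with them in the muscle-rich spots.

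Isg15 was at 421 and 411 CPM in CO stroma and 19.7 and 43.3 CPM in DES stroma, a log2 change of -3.88 ± 0.45 (adjusted p = 0.0185 in edgeR's quasi-likelihood test). Ifit3 was at 75.2 and 106 CPM against 8.86 and 2.89 CPM, and Oas2 at 98.5 and 169 CPM against 12.8 and 8.66 CPM. For each of them both CO sections stood far above both DES sections. Rsad2 had 42 UMIs in the CO stromal spots and 0 in those of DES, which puts it at least 12.9-fold lower against a floor of 3 counts over the group. In a single section, 3 counts correspond to 2.95 CPM for DES A and to 8.66 CPM for DES B, so levels under these rest on fewer than 3 UMIs. Ifit1 had 44 UMIs in CO and 2 in DES, a ratio of levels of 0.0494 (exact 95% interval 0.00581 to 0.189, counting error only). Ifit2 had 37 UMIs against 1, a ratio of 0.0294 (0.000725 to 0.174). All 3 tetratricopeptide genes that could be tested in stroma fell. Ifit1 and Ifit2 met the filter on counts through the CO sections only, so this number is no separate support.

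Irf7, the master regulator of interferon alpha and beta production, was at 222 and 495 CPM in CO stroma and 69.9 and 49.1 CPM in DES stroma, and fell by 2.63 ± 0.45 on the log2 scale (adjusted p = 0.0367 in edgeR). Usp18 fell from 91.3 and 77 CPM to 11.8 and 11.5 CPM, and Stat2 from 102 and 118 CPM to 21.7 and 20.2 CPM. So 3 of the 4 signalling genes passed in stroma. The sensors that passed were Dhx58, at 44.8 and 58.5 CPM against 5.91 and 5.77 CPM, and Zbp1, a sensor of left-handed nucleic acids that can trigger cell death, at 107 and 98.6 CPM against 11.8 and 26.0 CPM. The classic RNA sensors Ddx58 (RIG-I) and Ifih1 (MDA5) did not pass, with stromal log2 changes of -0.71 ± 0.44 and -1.67 ± 0.52.

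The other stromal genes that fell were Oas1a (43.0 and 75.9 CPM in CO, 8.86 and 2.89 CPM in DES), Oasl2 (111 and 185 CPM against 21.7 and 34.6 CPM), Rtp4 (120 and 145 CPM against 34.5 and 23.1 CPM) and Xaf1 (86.0 and 88.9 CPM against 25.6 and 17.3 CPM). RTP4 is a chaperone of chemosensory receptors that also inhibits viruses, and XAF1 is a pro-apoptotic protein. Ifi27l2a, the most abundant member in CO stroma, was at 897 and 2373 CPM in CO and 414 and 309 CPM in DES but did not pass (adjusted p = 0.0657 in edgeR). Bst2, which encodes the virus-tethering protein tetherin, was at 836 and 1082 CPM against 287 and 531 CPM (adjusted p = 0.206). In both genes the groups did not overlap. Ifi27 overlapped between the conditions, at 229, 193, 268 and 179 CPM.

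Within each CO section the members stood higher in stroma than in the other spots, and within the DES sections most did not. In CO A and CO B, 34 of 36 members each had a higher CPM in stromal spots than in all other spots, with a median log2 ratio of 0.78 and 0.94. In DES A 15 of 36 and in DES B 8 of 36 did, with medians of -0.23 and -0.50 over the 35 and 32 members with a stromal UMI. These counts describe the sections and carry no test, since the counts that are compared also formed the clusters. The share of all genes that stood higher in stroma was not counted, so whether these numbers are particular to the members is not known. Of the stromal spots, 37 of 211 in DES A and 86 of 132 in DES B were also among the muscle-rich spots described below, and 0 in the CO sections. Without them, the summed stromal level was 1797 CPM in DES A (174 spots) and 1804 CPM in DES B (46 spots), and 14 and 10 of 36 members were higher in stroma than outside it. Without those spots, a setting added after the data were seen, 13 of 34 members were called lower in DES stroma (0.668% of genes) and 5 of 36 for the difference of enrichment described next (Ifit1, Irf9, Isg15, Isg20 and Zbp1, with 0.718% of genes). Over the 36 genes, the summed level outside stroma was 2804 and 2877 CPM in CO and 1466 and 1959 CPM in DES.

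**Figure D3:**
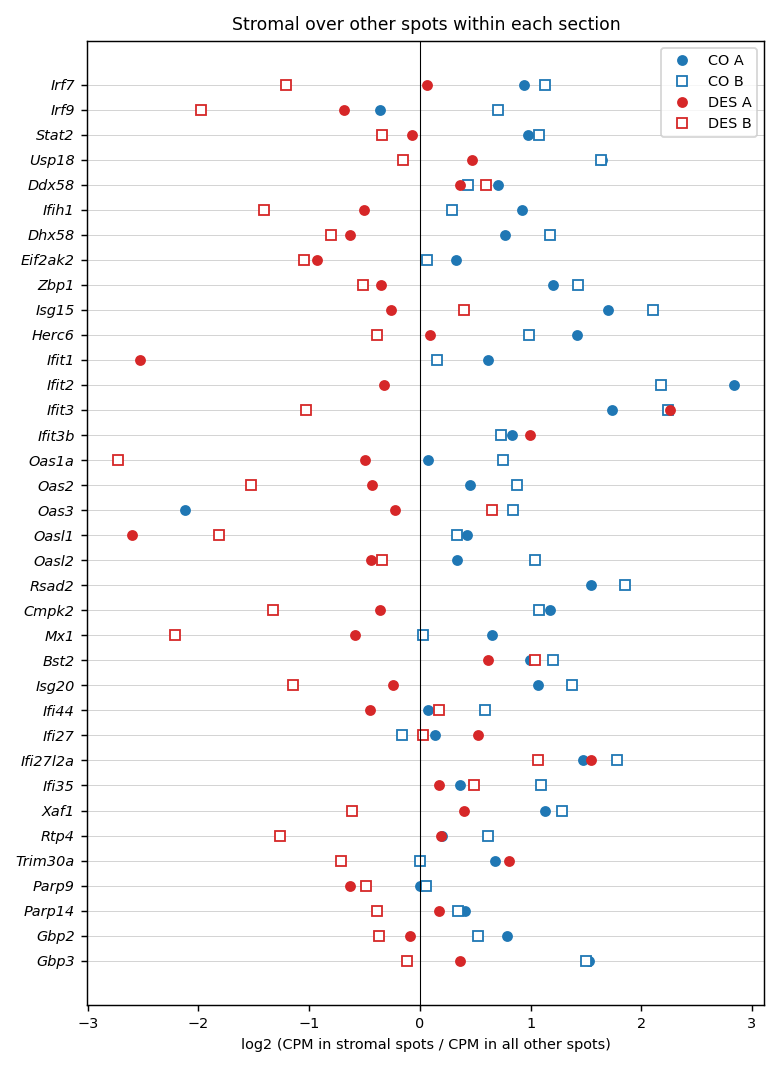
Log2 ratio of the CPM in stromal spots to that in all other spots (x axis) for each member in each of the 4 sections. Members with 0 UMIs in the stroma of a section have no point there. Most CO points lie right of 0, and most DES points left of it.

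The difference of this enrichment between conditions was tested in a fit with the section as a term. The fit used the same clusters, which were formed on the counts being compared, so its p-values carry that limit. They also lean on a spread pooled over all genes. It was more negative in DES for 7 members and more positive for 0, where 0.783% of the 13542 genes tested were called lower and 2.58% higher. At an unadjusted p under 0.05 it was lower for 21 members (4.74% of genes) and higher for 0. The median difference over the members was -1.10 on the log2 scale, against -0.02 over all genes. Ifit1 differed by -3.45 ± 0.83 (adjusted p = 0.0113 in edgeR's quasi-likelihood test), a value that rests on 2 Ifit1 UMIs in the DES stroma, both in DES A, and ran from -10.05 to -1.83 over the alternatives. Oasl1 differed by -2.50 ± 0.65, which rests on 2 UMIs in the stroma of each DES section, ran from -2.87 to -1.24 over the alternatives and was called in 4 of 9 of them. Isg15 differed by -1.74 ± 0.34 (adjusted p = 0.0012), Isg20 by -1.72 ± 0.35, Zbp1 by -1.61 ± 0.39, Irf7 by -1.33 ± 0.32 and Irf9 by -1.19 ± 0.34 (adjusted p = 0.0488). Over the alternatives Irf7 ran from -2.09 to -0.73 and Irf9 from -1.94 to -0.60, with adjusted p-values up to 0.191 and 0.691 in edgeR. Irf9 was 0.778 times as high in stroma as elsewhere in CO A and 1.63 times in CO B, so its difference depends on the CO section. Isg20, an exonuclease that degrades RNA, was at 73.4 and 49.9 CPM in CO stroma and 34.5 and 52.0 CPM in DES stroma, so its groups overlapped there. Outside stroma it was at 35.1 and 19.3 CPM in CO and 40.7 and 115 CPM in DES, so both DES sections were higher there. Gbp3 (-1.25 ± 0.39), Oas2 (-1.31 ± 0.42) and Stat2 (-1.06 ± 0.36) had the next smallest p-values and did not pass. By DESeq2, 2 members passed, Isg15 and Isg20, where 0.214% of genes were called lower. Which members passed depended on the sections kept. Isg15 ran from -2.06 to -1.08 over the alternatives, Isg20 from -2.21 to -1.35 and Zbp1 from -1.70 to -1.17.

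Markers of other cells differed between the same stromal spots. All 4 natural killer (NK) cell markers were lower in both DES sections than in both CO sections, and they summed to 102 and 83.5 CPM in CO stroma and 3.94 and 8.66 CPM in DES stroma. Ncr1 was at 16.1 and 17.3 CPM in CO, and at 0 and 2.89 CPM in DES. The 5 endothelial markers summed to 174 and 286 CPM in CO stroma and 68.9 and 202 CPM in DES stroma, and the 4 T cell markers to 5.37 and 4.34 CPM against 24.6 and 60.6 CPM. The 5 macrophage and monocyte markers summed to 709 and 1278 CPM in CO stroma and 2254 and 1241 CPM in DES stroma. Of the plasmacytoid dendritic cell markers, Ccr9 and Klk1b27 were at 0 UMIs in the stroma of all 4 sections, and the list summed to 1.79, 0, 0.985 and 5.77 CPM. The part of these cells in the levels of the interferon-stimulated genes was not tested.

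In epithelium-rich spots, the 25% of spots of each section with the highest share of 5 epithelial markers such as Epcam and Krt8, 15 of the 35 members tested fell and 0 rose by edgeR, where 2.79% of the 12063 genes tested were called lower and 4.29% higher. There were 358, 458, 394 and 339 such spots. The members summed to 3209 and 2995 CPM in CO and 1536 and 1926 CPM in DES, with a median log2 change of -1.51 (all genes -0.02). Of those tested, 34 lay below 0, and both DES sections lay below both CO sections for 29 (14.9% of all genes tested) and above them for 1 (48.4%). At an unadjusted p under 0.05, 27 were lower (12.4% of genes) and 0 higher, and DESeq2 called 22 lower (5.02% of genes). In edgeR the calls were lost when either DES section was left out, as were most calls over all genes. The median over members ran from -1.89 to -1.26 over the main fit and the alternatives. Without CO A or without CO B, 27 passed each time, 1 of them (Irf9, without CO A) as higher, where 24.9% and 25.7% of all genes passed. In these spots basal cell markers summed to 4.70 and 175 CPM in CO and 9468 and 6761 CPM in DES, macrophage and monocyte markers to 166 and 270 CPM against 1705 and 825 CPM, and NK cell markers to 17.8 and 10.2 CPM against 2.34 and 3.71 CPM. Their part in the result was not tested.

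The oligoadenylate synthetases were again among the genes that fell, 4 of 5. Oas2 was at 109 and 138 CPM in CO and 20.1 and 27.7 CPM in DES, a log2 change of -2.67 ± 0.26 (adjusted p = 0.0161 in edgeR's quasi-likelihood test). Oas3 was at 24.7 and 17.5 CPM against 3.68 and 2.36 CPM, the largest change of the family at -3.11 ± 0.39. Oasl2 fell from 138 and 143 CPM to 38.4 and 45.9 CPM and Oas1a from 57.4 and 65.1 CPM to 13.4 and 18.6 CPM. Isg15 was at 164 and 121 CPM in CO and 26.7 and 33.4 CPM in DES, a fall of 2.55 ± 0.27 on the log2 scale. Rtp4 was at 159 and 150 CPM against 41.5 and 51.3 CPM, and Ifi44 at 71.5 and 61.5 CPM against 17.0 and 18.6 CPM. In each of these genes the epithelium-rich CO spots stood above those of DES without overlap.

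The other members that fell in epithelium-rich spots were Stat2, Dhx58, Ifit3, Ifit3b, Xaf1, Usp18, Parp9 and Parp14. Parp9 and Parp14, which encode ADP-ribosyltransferase family proteins that act in interferon signalling, were called here and in no other comparison. Parp9 was at 88.2 and 83.3 CPM in CO and 45.8 and 52.7 CPM in DES, and Parp14 at 85.2 and 93.6 CPM against 42.8 and 57.0 CPM. Their stromal changes of -1.19 ± 0.37 and -1.13 ± 0.33 were of like size, so a difference between the spots was not shown. Rsad2 was at 7.05 and 14.8 CPM against 0.334 and 2.36 CPM and did not pass (adjusted p = 0.0724 in edgeR). Of all members, 8 were called in whole sections, stromal and epithelium-rich spots alike (Dhx58, Ifit3, Isg15, Oas1a, Oas2, Oasl2, Stat2 and Usp18), 20 in at least 1 of these and 16 in none. The spots of these comparisons come from the same sections, so the counts are not independent. The shares of all genes called in the same ways were not counted.

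In muscle-rich spots, taken in the same way with 5 muscle markers such as Myh11 and Acta2, no member passed. Their summed level was 1721 and 1958 CPM in CO and 1628 and 1872 CPM in DES. By edgeR 0 of the 29 tested were called and by DESeq2 0, where 5.38% of the 11057 genes tested were called in either direction. At an unadjusted p under 0.05, edgeR put 2 lower and 2 higher (18.8% of genes in either direction). The median change was -0.10, and it turned positive without CO B (0.36) or without DES A (0.11). Both DES sections lay above both CO sections for 12 members (43% of all genes tested) and below for 4 (12.1%). Bst2 was the most abundant member here, at 717, 673, 608 and 699 CPM (CO A, CO B, DES A, DES B). Isg15 was at 28.7 and 19.8 CPM in CO and 9.61 and 20.9 CPM in DES, below the levels of the other CO regions. The lowest p-values were those of Ifi27l2a, Gbp2, Irf9, Isg20, Oas2, Isg15, Gbp3, Ddx58, Trim30a and Ifi27, of which Irf9, Isg20, Gbp3, Ddx58 and Trim30a had a positive fold change. Ifi27l2a was at 303 and 468 CPM in CO and 228 and 253 CPM in DES, and Gbp2 at 75 and 97.1 CPM against 49.0 and 60.3 CPM. Without CO B, 6 members passed, 3 lower (Gbp2, Ifi27l2a and Isg15, with 9.60% of all genes lower) and 3 higher (Gbp3, Irf9 and Isg20, with 10.4% higher), a share near that of all genes. Muscle markers in these spots reached 46909 and 46103 CPM in CO but 20665 and 18130 CPM in DES, and 37 and 86 of the DES spots were also in the stromal cluster.

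Some members did not follow the rest. Irf9, the DNA-binding subunit of the type I interferon transcription complex, was at 461 CPM in CO A but 63.0 CPM in CO B, and at 285 and 322 CPM in DES A and DES B. In whole sections it was called higher in DES without CO A and lower without CO B, so its value is set by which CO section is used. In epithelium-rich spots it was at 705 and 79.0 CPM in CO A and CO B and 392 and 350 CPM in DES. In stromal spots it was at 362 and 97.6 CPM in CO A and CO B and 185 and 83.7 CPM in DES. In the muscle-rich spots it was at 43.4 and 22.2 CPM in CO and 74.0 and 93.9 CPM in DES. Isg20 was at 36.8 and 21.8 CPM in whole CO sections and 40.0 and 113 CPM in DES, a log2 change of 1.18 ± 0.58 that did not pass (adjusted p = 0.291 in edgeR). Mx1, a dynamin-like GTPase active against influenza virus, was at 30.3 and 26.7 CPM against 34.2 and 52.1 CPM (adjusted p = 0.444). Ifi35 was at 91.5, 92.2, 92.2 and 102 CPM and Ifi27 at 209, 214, 196 and 175 CPM, close in all 4 sections. Eif2ak2, the kinase that halts translation in response to double-stranded RNA, overlapped at 30.3 and 17.7 CPM against 19.5 and 23.4 CPM. Gbp2 and Gbp3, GTPases that attack intracellular pathogens and respond to interferon gamma, overlapped in whole sections, with Gbp3 at 31.7, 46.0, 11.1 and 34.3 CPM. In stromal spots both DES sections lay below both CO sections for these 2 genes, with Gbp2 at 85.9 and 103 CPM against 22.7 and 57.7 CPM and Gbp3 at 84.2 and 113 CPM against 13.8 and 31.8 CPM, but neither passed (adjusted p = 0.246 and 0.0577 in edgeR). Trim30a, a regulator of innate signalling, was at 26.4 and 28.2 CPM in CO and 18.3 and 23.3 CPM in DES, and was not called in any region.

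The spot clusters of the authors (10 per section) show where in each uterus the members were high. In CO A the summed level ran from 1582 CPM (cluster 2) to 4797 CPM in the stromal cluster, and in CO B from 1780 CPM (cluster 5) to 6744 CPM in the stromal cluster, followed by 5687 CPM in cluster 7. In both CO sections the stromal cluster was the highest of the 10. In DES A the range was 1168 to 2587 CPM, its top cluster having 9 spots, and in DES B 1560 to 2519 CPM. The DES stromal clusters, at 1766 and 1816 CPM, were not the highest of their sections.

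Other genes of the pathway were taken from lists of 9 interferons, 6 receptors, 10 kinases and regulators, 8 sensors and adaptors and 12 genes typical of interferon gamma. Of the 33 that could be tested in whole sections edgeR called 0 (DESeq2 called 2), with 1 higher and 3 lower at an unadjusted p under 0.05 (12.8% of all genes were lower). It also called 0 of 25 in stromal spots (DESeq2 1, and 7 lower and 0 higher at an unadjusted p under 0.05, where 6.35% of all genes were lower) and 0 of 29 in epithelium-rich spots (DESeq2 2, and 6 lower, where 12.4% of all genes were, and 4 higher). Of the 7 in stroma 5 were among the 6 tested genes typical of interferon gamma, whose median log2 change was -1.54. The difference of stromal enrichment was called for Iigp1, a GTPase induced by interferon gamma, at -2.42 ± 0.55 (adjusted p = 0.00657), and for Gbp4 at -1.71 ± 0.39 (adjusted p = 0.0064), both by edgeR, while DESeq2 called 0 of the 33 genes tested. Iigp1 was at 32.2 and 61.8 CPM in CO stroma and 1.97 and 17.3 CPM in DES stroma, while outside stroma DES B, at 45.2 CPM, had the highest level. In muscle-rich spots 1 of 28 was called, a share below the 5.38% of all genes, and DESeq2 also called 1. This gene, Tmem173 (STING, the adaptor of cytosolic DNA sensing), rose from 16.9 and 21.4 CPM to 51.9 and 69.3 CPM (log2 1.40 ± 0.30, adjusted p = 0.0383 in edgeR). In the same spots the muscle markers were lower in DES, as given above, and their part in this difference was not tested.

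Of the interferon genes themselves, Ifne alone had enough counts for a test. It was at 6.40 and 15.7 CPM in whole CO sections and 4.28 and 5.16 CPM in DES, and at 11.8 and 32.3 CPM against 4.01 and 6.08 CPM in epithelium-rich spots (log2 -2.41 ± 0.58, adjusted p = 0.0717 in edgeR). The groups did not overlap. The difference in epithelium-rich spots did not pass in edgeR but passed in DESeq2. Ifnb1, Ifnk, Ifnl2, Ifnl3, Ifna1, Ifna2 and Ifna4 had 0 UMIs in every section, which does not show that they were absent at this depth, since 3 counts correspond to 0.240 to 0.329 CPM of a section. Ifng had 3, 4, 0 and 2 UMIs.

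In single cells, the CO library gave the level of the members in each annotated type. The UMIs of all cells of a type were added up, and with 1 library per condition the values are given without a test and with exact Poisson intervals at 95%, which cover counting error only. Myeloid and endothelial cells of CO were the highest, with summed levels of 3939 CPM (3783 to 4098) and 3341 CPM (3272 to 3412). Mesothelial cells were at 2060 CPM (2050 to 2070), stromal cells at 1995 CPM (1969 to 2020), lymphocytes at 1939 CPM (1882 to 1997) and pericytes at 1625 CPM (1495 to 1764). Lower still were the 22 Stmn1-hi cells at 1481 CPM (1367 to 1601), epithelial cells at 1161 CPM (1153 to 1168), myocytes at 1018 CPM (959 to 1079) and the cells labelled Ctla2a at 635 CPM (606 to 665). The intervals of stromal cells and lymphocytes overlap, as do those of pericytes and Stmn1-hi cells. Ifi27l2a, Bst2 and Ifi27 made up 47.5% of the member UMIs over all annotated cells, so the sums lean on these 3 genes. Over all annotated cells they were followed by Gbp2 (93.9 CPM), Oasl2 (61.9 CPM), Eif2ak2 (57.9 CPM), Rtp4 (48.9 CPM), Ifit1 (40.9 CPM), Ifi35 (38.0 CPM) and Irf9 (34.8 CPM). Of the 36 members, 18 had their highest level in CO endothelial cells and 11 in CO myeloid cells. The share of all genes highest in each type was not counted, so whether this is particular to the members is not known. Usp18 and Isg20 were highest in CO stromal cells, Oas2 in CO epithelial cells, Ifi27 in CO mesothelial cells, Bst2 and Gbp2 in DES mesothelial cells and Gbp3 in DES myeloid cells.

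Rsad2 was at 220 CPM in CO endothelial cells, then at 56.8 CPM in CO myeloid cells, and at 0 to 45.7 CPM in all other types. Ifi44 was at 239 CPM in endothelial cells, with CO epithelial cells next at 49.8 CPM. Ifit1 (163 CPM), Rtp4 (163 CPM), Parp14 (151 CPM), Isg15 (142 CPM), Irf7 (133 CPM), Ifi35 (124 CPM) and Xaf1 (122 CPM) also had their highest level in endothelium. The endothelial cells were uneven: after thinning each cell to 3000 UMIs, the median cell held 7 member UMIs, the cell at the 90th percentile 21 and the highest 52. In CO epithelial cells the corresponding values were 3, 7 and 26. CO myeloid cells led for Ifi27l2a (1624 CPM), Oasl2 (141 CPM, as in endothelium), Trim30a (123 CPM), Ifit2 (50.3 CPM) and Ifih1 (45.4 CPM). They number 67 cells and held stromal markers at 5115 CPM, against 265 CPM in the 228 DES myeloid cells, and the part of those markers in these levels was not tested. Mesothelial cells, which line the outer surface, were rich in Ifi27l2a (518 CPM), Bst2 (413 CPM) and Ifi27 (352 CPM) and low in Mx1 (1.99 CPM) and Oas3 (0.878 CPM). In stromal cells, pericytes, Stmn1-hi cells and lymphocytes of CO, in DES lymphocytes and in the Ctla2a cells, the same 3 genes led, with Bst2 at 518 CPM in stromal cells. Epithelial cells were led by Ifi27, with Rtp4 (80.0 CPM) and Eif2ak2 (72.2 CPM) next in CO and Bst2 (79.0 CPM) and Eif2ak2 (63.3 CPM) next in DES. In myocytes Gbp2, at 72.0 CPM, followed Bst2 and Ifi27.

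Within the CO epithelium, luminal cells held more of the members than glandular cells. Clusters 3, 8, 13 and 14 were taken as glandular, as the study did from Sult1d1, which was at 618 to 870 CPM there and at 17.8 to 82.9 CPM in the other clusters. The members summed to 1262 CPM (1254 to 1270) in the luminal clusters, 756 CPM (716 to 798) in cluster 12, which was assigned to neither, and 450 CPM (436 to 465) in the glandular clusters. Of 31 members with at least 10 CPM in either class, 27 were at least 1.5-fold higher in luminal cells (22% of 8402 genes) and 3 at least 1.5-fold lower (18.9% of genes), with a median ratio of 3.98 (all genes 1.04). Oasl1 was at 37.7 CPM in luminal and 3.33 CPM in glandular cells, Mx1 at 22.3 against 2.07 CPM, Oas3 at 15.9 against 1.61 CPM, Ifi44 at 56.3 against 5.97 CPM and Isg15 at 33.6 against 3.90 CPM. Bst2 was nearly level at 69.5 and 78.5 CPM. The cells were grouped by their own counts, so these ratios are a description.

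Ifit3 and Ifit3b ran the other way, at 2.82 and 3.59 CPM in luminal cells and 17.6 and 13.3 CPM in glandular cells, as did Isg20 at 23.7 against 50.1 CPM. Their relative Ifit1 was at 62.5 CPM in luminal and 7.81 CPM in glandular cells, although the Ifit1 and Ifit3 promoters shown above each hold 2 core matches. Among glandular clusters, Ifit3 was at 20.3 and 25.2 CPM in clusters 3 and 8 and at 0 and 3.31 CPM in clusters 13 and 14. Isg20 was highest in cluster 13, at 79.7 CPM, a cluster whose leading gland product was Prss29 at 51277 CPM.

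**Figure D4:**
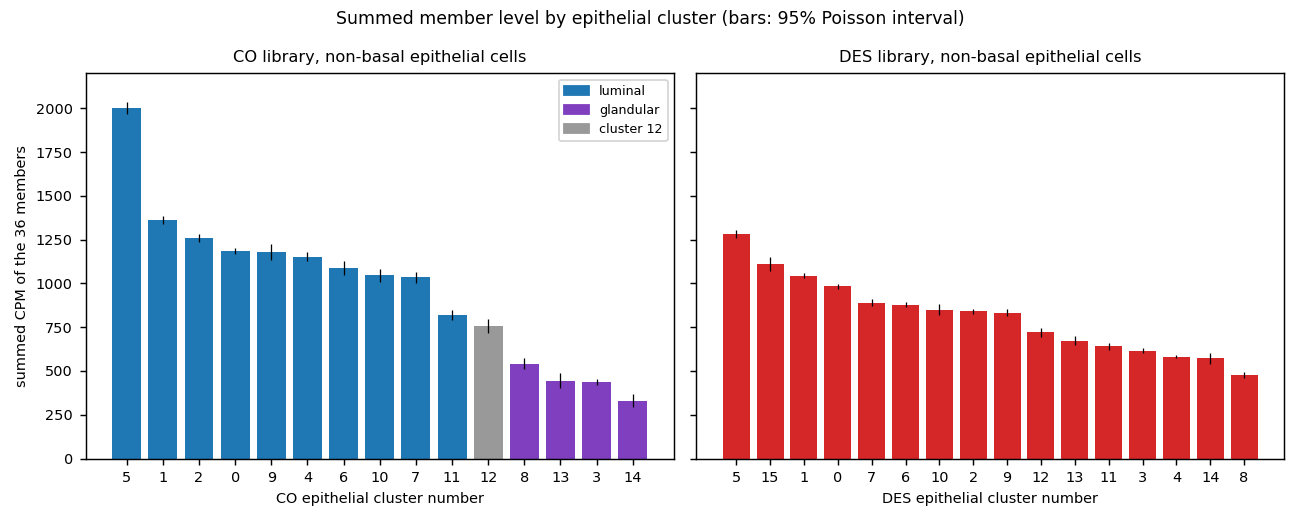
Summed CPM of the 36 members (y axis, bars from 0) in each epithelial cluster of the CO and DES libraries, ordered by level, with 95% Poisson intervals for counting error. In CO the 4 glandular clusters are the lowest and luminal cluster 5 the highest at 2001 CPM, and in DES the clusters run from 1281 to 479 CPM.

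A single luminal cluster of CO, cluster 5 with 168 cells, stood above the rest at 2001 CPM, followed by 1363 CPM in cluster 1. It was the highest CO cluster for Isg15 (70.3 CPM), Ifit1 (140 CPM), Irf7 (96.9 CPM), Oasl1 (76.1 CPM) and Oasl2 (133 CPM). In the DES epithelium, cluster 5 (295 cells, 1281 CPM) and cluster 15 (54 cells, 1111 CPM) were the highest and cluster 8 (203 cells, 479 CPM) the lowest. DES cluster 5 was also the highest DES cluster for Isg15 (32.2 CPM), Ifit1 (86.0 CPM) and Irf7 (70.0 CPM). Basal cells of the DES library, 483 cells with Krt14 and Trp63 each above 1 UMI, held 669 CPM (653 to 686) of the members against 835 CPM (830 to 839) in the non-basal cells, taken as those the authors placed in a DES epithelial cluster. Of 26 members compared, 13 were at least 1.5-fold lower in basal cells (15.2% of genes) and 0 higher (15.6%). Irf7 was at 8.80 CPM in basal and 28.8 CPM in non-basal cells, and Rtp4 at 22.9 against 53.4 CPM, while Ifit1 was at 47.6 against 38.0 CPM.

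Between the libraries, the epithelium held less of the members in DES, at 825 CPM (820 to 829) over 5255 cells, than in CO, at 1161 CPM (1153 to 1168) over 2583 cells. Of 29 members with at least 10 CPM in either library, 17 were at least 1.5-fold lower in DES (14.8% of 8445 genes) and 0 higher (16.9%). Their median ratio was 0.608, against 1.04 for all genes. Of the CO epithelial cells, 2095 were in the luminal clusters, which held more of the members than the glandular ones, and the clusters were made separately for each library, so the mix of cells and the level per cell cannot be told apart. The lowest ratios were those of Ifi44 (49.8 to 12.0 CPM, ratio 0.242, interval 0.229 to 0.255), Oas3 (14 to 3.80 CPM, 0.272), Oasl1 (33.2 to 10.0 CPM, 0.301), Mx1 (19.7 to 6.26 CPM, 0.318) and Oas2 (28.5 to 10.3 CPM, 0.361). The highest were those of Ifi27 (131 to 154 CPM, 1.17), Trim30a (17.5 to 20.1 CPM), Bst2 (70.2 to 79.0 CPM, 1.13), Gbp3 (11.4 to 12.1 CPM, 1.07) and Ifi35 (35.3 CPM in both, 0.999). Isg15 was at 30.1 CPM in CO and 15.3 CPM in DES, a ratio of 0.507 (0.480 to 0.536). The 4 synthetases that fell in epithelium-rich spots were all lower in the DES library, with Oas1a at 26.8 and 10.4 CPM and Oasl2 at 64.9 and 38.9 CPM in CO and DES, and Irf9 was at 42.7 and 35.7 CPM. Without basal cells the median ratio was 0.625 and 15 of 29 members were at least 1.5-fold lower, 0 higher (15.3% and 16.7% of genes).

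3 other cell types had cells in both libraries. In mesothelial cells the members summed to 2060 CPM in CO and 2289 CPM (2277 to 2301) in DES, and of 23 compared, 2 were at least 1.5-fold higher in DES (5.73% of genes), 0 lower (5.37%), with a median ratio of 0.989. The higher ones were Gbp2, at 181 and 276 CPM, and Gbp3, at 17.7 and 27.9 CPM. In lymphocytes (423 CO and 239 DES cells) 5 of 34 were higher (20.2% of genes) and 5 lower (9.98%). Ifi44 was at 28.9 CPM in CO and 1.34 CPM in DES lymphocytes, and Rsad2 at 12.9 and 45.7 CPM. In myeloid cells 25 of 35 members were lower in DES (40.1% of genes) and 1 higher (11%), with a median ratio of 0.570 against 0.767 for all genes. The stromal markers that these cells held, at 5115 CPM in CO and 265 CPM in DES, differed in the same direction, and their part in this ratio was not tested. Isg15 was at 135 CPM in both libraries, whereas Ifit1 was at 87.6 CPM in CO and 13.7 CPM in DES. The DES cells labelled DES-Myeloid-Lyz2hi (136 cells) held 889 CPM of the members.

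Interferon genes in single cells were few. Ifne was in the epithelium of both libraries, with 1054 UMIs in 715 of 2583 CO cells and 1820 UMIs in 1317 of 5255 DES cells, which is 13.4 and 10.3 CPM. In lymphocytes of CO, which should lack it, 5 of 423 cells held an Ifne UMI, at a median depth of 4033 UMIs per cell against 23458 in CO epithelium. Ifnb1 had 19 UMIs in 3 of 228 DES myeloid cells, 9 of them in a single cell, and 1 UMI in CO myeloid cells. Ifnk had 79 UMIs in DES and 5 in CO epithelial cells, which is 0.448 and 0.0635 CPM, the direction opposite to Ifne. Ifng had 10 UMIs in the lymphocytes of each library. Of the 12 listed genes typical of interferon gamma, 9 could be compared in mesothelial cells, and 6 were at least 1.5-fold higher in DES and 0 lower, where 5.73% and 5.37% of all genes were. Among them the chemokine Cxcl9 was at 242 CPM against 54.7 CPM in CO and Iigp1 at 131 against 47.5 CPM, both named after their values were seen. In lymphocytes 5 of 10 were higher in DES and 0 lower (20.2% and 9.98% of genes), and in myeloid cells 0 of 10 were higher and 6 lower (11% and 40.1% of genes).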

How the data were processed

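Single-cell and spatial (Visium) RNA were measured in 1 CO and 1 DES library and in 2 CO and 2 DES sections. The authors deposited raw UMI counts per gene and per cell or spot, with their cell types and clusters. The submitters' processing notes name bcl2fastq 2.20.0.422, Cell Ranger 3.0.1, Space Ranger 1.2.2 and the mm10 genome. The members and lists were chosen with earlier results of these data known. Counts were summed over cells or spots and divided by the total (CPM), with exact Poisson intervals at 95%. Intervals and floors of 3 counts cover counting error only. Cells were thinned to 3000 UMIs with a fixed seed for values per cell. Per the study's methods the authors had removed potential doublets. None were called here, and each annotated cell was used as the authors annotated it.

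Section sums, 2 CO against 2 DES, were tested with edgeR 4.0.16 (TMM factors, filterByExpr, quasi-likelihood test, Benjamini-Hochberg over all genes, threshold 0.05) in R 4.3.3. The difference of stromal enrichment had the section as a term. The scripts were tested on simulated data. The section, from 1 mouse, is the replicate. For the comparisons of 2 CO against 2 DES, p-values measure the spread between sections. For the difference of enrichment they measure the spread of the stromal to other ratio, since the section term takes out level differences between sections. In each case edgeR moderates this spread over all genes, so a p-value does not rest on the sections of 1 gene alone. Stromal clusters were those the study named (CO A 8, CO B 6, DES A 4, DES B 5). Named members were those that passed and the 10 with the smallest p in each comparison, the 10 most abundant over all annotated cells, the 3 highest in each cell type, and in epithelial cells the 5 highest and 5 lowest ratios; the rest were named to account for the whole list. Ratios between libraries used members with at least 10 CPM in either group and a fold of 1.5. Alternatives were DESeq2 1.42.0, other size factors, no filter, other spot choices, each section left out, and for cells other filters, weights and totals. Positions follow RefSeq windows of GRCm38.p6, the assembly that mm10 names. Related paralogs (Ifit3 and Ifit3b, Oas1a and other Oas1 genes, Gbp2 and Gbp3) may share reads, to an extent that was not measured. Python 3.11.15, numpy 2.4.6, scipy 1.17.1 and pandas 2.3.3 were used. The values of 1 gene of the pathway lists are not reported here.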

Additional observations from a re-analysis of the deposited data

Results flagged for a closer look

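The change in stromal enrichment from CO to DES, the log2 ratio of stromal to other spots, was flagged where its own test passed. That test used clusters formed on the same counts. This was the case for Isg15 (-1.74), Ifit1 (-3.45), Irf7 (-1.33), Irf9 (-1.19), Oasl1 (-2.50), Zbp1 (-1.61) and Isg20 (-1.72), and for the interferon gamma genes Iigp1 (-2.42) and Gbp4 (-1.71). In cells without a cell type, which no comparison used, Ifit1 was at 55.8 CPM in the DES library (6611 cells) and 35.9 CPM in the CO library (20134 cells).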

How the results depend on the processing

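No paired analysis was possible because the sample titles share only the letter B between the conditions and nothing in the labels pairs a CO with a DES section. No fold change that had passed changed its sign under any alternative, while Irf9, which had not passed in whole sections, was called higher without CO A and lower without CO B. Members called in whole sections numbered 19 with DESeq2 and 0 to 18 with a section left out. In stromal spots they numbered 23 without the filter on low counts, 2 with stroma taken by marker score, 13 without stromal spots that were also muscle-rich, and 0 to 18 with a section left out. In epithelium-rich spots they numbered 0 to 27 with a section left out, and 22 with DESeq2. In muscle-rich spots they numbered 4 without the filter and 0 to 6 with a section left out, and the median over members turned to 0.36 without CO B and 0.11 without DES A, and was -0.38 without DES B. For the difference of stromal enrichment they numbered 2 with DESeq2 and 3 to 7 with a section left out. A condition left with 1 section is assumed to vary like the other. Without the filter, the 4 members called in muscle-rich spots were 2 lower and 2 higher of 36. In that fit 4.26% of all genes were called lower and 4.47% higher, so these calls do not set the members apart. The 23 called in stromal spots without the filter were all lower, where 2.14% of all genes were. The ranges over all genes given next are counts from fits that tested different numbers of genes, and are not shares. Over all genes, calls ran from 3 to 2819 in whole sections (DESeq2 1791), 20 to 714 in stromal, 39 to 3173 in epithelium-rich (DESeq2 1360) and 96 to 2191 in muscle-rich spots, and from 207 to 646 for the enrichment, and the cause was not tested.

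The DES to CO ratio of the summed members, 0.710 in epithelial cells, was 0.736 with each cell weighted alike, 0.729 without the 20 most abundant genes in the total and 0.627 without the 3 most abundant members. For mesothelial cells it was 1.11, with 1.08 when cells were weighted alike and 1.09 without those members. Lymphocytes moved from 0.968 to 0.856 with cells weighted alike, and myeloid cells from 0.594 to 0.564, or 0.542 without the 3 members. The luminal to glandular ratio of 2.80 became 3.34 without them, and the basal to non-basal ratio of 0.802 became 0.767 with cells weighted alike, 0.771 without the 20 genes and 0.7105 without the 3 members. Leaving out barcodes found in both libraries, chosen after seeing the data, moved none of these ratios by more than its counting interval. Shares of epithelial cells with a UMI were also taken at 5000 UMIs and without thinning for 3 members, but no such share is given here. The thinned sums per cell were taken at 3000 UMIs only. The depth of the DES B stroma, 346412 UMIs, limits what could be seen of rare members there.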

Other observations

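In DES basal cells, 4 of 7 kinases and regulators with enough counts were at least 1.5-fold higher than in non-basal epithelial cells and 1 lower, while of 6 interferon gamma genes 1 was higher and 2 lower, of 5 receptors 1 and 1, of 4 sensors and adaptors 0 and 3, and the single interferon compared, Ifne, was lower. Over all genes 15.6% were higher and 15.2% lower, and the values describe 1 library. Socs3, a feedback inhibitor of cytokine signalling, was at 276 CPM in basal cells and 6.36 CPM in non-basal cells. Socs1 was at 21.4 against 2.23 CPM, Cxcl10 at 56.3 against 2.17 CPM, and the transcription factor Irf1 at 140 against 33.8 CPM. Gbp4 ran the other way, at 12.0 against 51.2 CPM, and was at 7.70 CPM in the CO epithelium. These genes were singled out after their values were seen.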
